A study of Mus musculus with 16 samples.

Results

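Processed noncoding transcripts of the mouse hippocampus are described here over 4 groups of mice. They are the transcripts whose class in the deposited table is processed_transcript, without Malat1, Miat, Meg3, Neat1, Tug1, Rian, Mirg, Gas5, Gm9017, Gm14372, Gm37571, Gm32391, 1700065J18Rik, C130026L21Rik and the genes with names that begin with Snhg. This left 899 of the 990 transcripts of the class, out of 80137 transcripts in the whole table, and they belonged to 464 genes.

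RNA was sequenced from the pooled left and right hippocampus of 16 C57BL/6 male mice aged 3 months, with 1 library per mouse and 4 mice per group. Homecage (HC) mice received neither shocks nor trials, and control (Ctrl) mice received 30 escape trials at 0.4 mA without earlier inescapable shocks. Mice called learned helpless (LH) and mice called non-learned helpless (NLH) all received 180 inescapable shocks of 0.4 mA and then 30 such trials. The shock of a trial ended when a mouse escaped, so that behavior and the shock received in the trials cannot be told apart between them. The study split them by k-means clustering and discriminant analysis of escape failures and latency. The hippocampi were collected 3 h after testing. In such bulk tissue, fewer cells of a type and less RNA per cell cannot be told apart.

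The processed transcript class collects spliced RNAs for which annotators found no open reading frame and which fit no more specific noncoding class. It holds long noncoding RNAs that act as RNA, genes whose introns carry microRNAs or small nucleolar RNAs, and noncoding isoforms made at coding loci. MicroRNAs repress messenger RNAs by pairing through their seed, bases 2 to 8 of the mature strand, whereas most small nucleolar RNAs (snoRNAs) guide chemical modification of ribosomal RNA. In brain, long noncoding RNAs are known for low and cell type restricted levels.

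In GENCODE vM21, on the mm10 build of the deposited table, 890 of the 899 transcripts and 458 of the 464 genes were found. The class of the table was also the vM21 type of 383 genes, and by their own vM21 type 378 of the transcripts were processed transcripts, 206 antisense, 171 lincRNA and 87 retained introns. The name therefore described the members only in part. The genes also included names known for proteins, such as Cct6a (a subunit of the chaperonin that folds actin and tubulin), Ptpmt1 (a mitochondrial phosphatase of cardiolipin synthesis) and Tctn2 (a protein of the ciliary base), and 5 genes had become protein coding in vM21. A further 59 genes (12.7%) lay at an assembled locus together with an mRNA, where the quantification could divide fragments between overlapping transcripts. The sources used here do not say whether strand was kept, and reads of a gene and of an overlapping gene on the other strand cannot then be told apart.

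Small RNA genes lay inside 27 of the 464 genes on the same strand, 17 with microRNAs (26 microRNA genes) and 10 with snoRNAs (19 genes). These hosts stood high among the members: 15 were among the 50 genes with the highest level, and 12 among the other 414. The mature sequences below belong to 7 hosts with a mean level of at least 1, shown because they tell which regulatory RNAs the host values bear on. They are from RefSeq (GRCm38.p6, 5′ to 3′) with the seed in capitals, and they were not themselves measured in these libraries of long RNA. The first 4 come from a pair of hosts with a parallel order of microRNAs, Mir99ahg (chromosome 16, 77236317 to 77773427) and 2610203C20Rik (chromosome 9), and miR-99a of the former and miR-100 of the latter share a seed.
miR-99a-5p: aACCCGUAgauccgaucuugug
miR-100-5p: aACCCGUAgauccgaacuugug
let-7c-5p: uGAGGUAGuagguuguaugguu
miR-125b-5p, made from a gene in each of both hosts: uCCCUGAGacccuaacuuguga
A330023F24Rik carries a pair with 1 seed, which is also true of Dleu2 and of 1700016P03Rik.
miR-29b-3p, in A330023F24Rik: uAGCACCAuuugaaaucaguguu
miR-29c-3p, in A330023F24Rik: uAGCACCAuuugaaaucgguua
miR-15a-5p, in Dleu2: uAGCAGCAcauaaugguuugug
miR-16-5p, in Dleu2: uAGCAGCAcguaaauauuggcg
miR-132-3p, in 1700016P03Rik: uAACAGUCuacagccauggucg
miR-212-3p, in 1700016P03Rik: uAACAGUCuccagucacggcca
The last pair of hosts, Mir22hg and Gm26871, carries microRNAs with seeds of their own.
miR-22-3p, in Mir22hg: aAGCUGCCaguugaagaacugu
miR-137-3p, in Gm26871: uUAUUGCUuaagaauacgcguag

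FPKM, the unit of all levels here, divides fragment numbers by transcript length and library size. The median of the members' means over 16 mice was 0.125, with a middle range of 0.0422 to 0.333, beside 0.0994 for lincRNA, 0.112 for antisense and 0.309 for protein coding transcripts. A mean of at least 1 was reached by 72 members (8.01%), against 7.04% of lincRNA, 4.96% of antisense and 27.1% of protein coding transcripts. Only 376 members were above 0 in every mouse. They had a median length of 976 bases and 3 exons, and 276 of the genes were represented by 1 transcript.

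**Figure D1:**
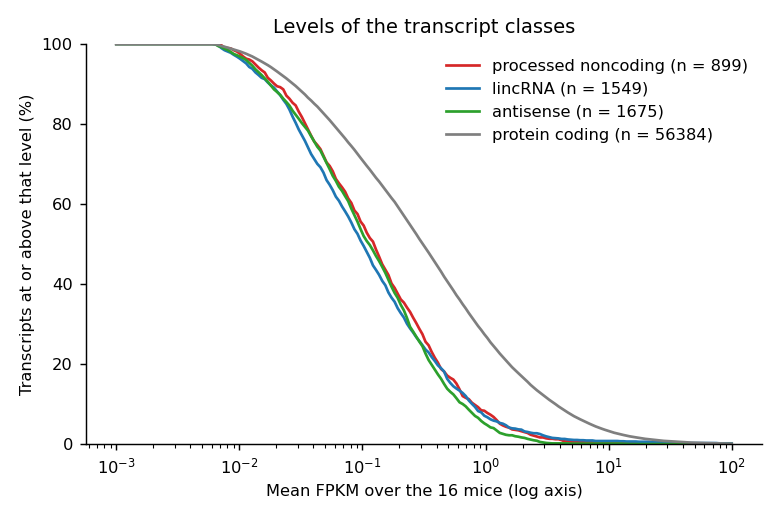
Share of the transcripts of each class (vertical axis, %) whose mean FPKM over 16 mice was at or above the level on the horizontal axis (log scale). The processed noncoding curve lies near those of lincRNA and antisense, with 54.8% of the 899 transcripts at 0.1 or more, and below protein coding transcripts, of which 70.9% reached 0.1.

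Fragments per member were few. Depth was estimated from the steps between FPKM values at 20150000 to 38050000 fragments per mouse, and on that estimate 628 of 880 members had a mean of fewer than 10 fragments. Of the 72 members with a mean of at least 1, 71 had an estimate, with a median of 65.1 fragments.

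A pair of LH libraries stood apart from the rest. In the 12 HC, Ctrl and NLH mice, 149 to 235 of the 899 members were listed at 0, and in LH 1 and LH 2 201 and 215. LH 3 had 317 members at 0 and LH 4 443, and the estimated depth of LH 4 was the lowest, 20150000 fragments. Correlations between LH mice over the members' log2 levels were also lowest for LH 4, 0.683 to 0.701, beside 0.787 to 0.858 for the other LH pairs and 0.843 to 0.891 for pairs within the other groups. For many of the named genes, the differences that involve LH are therefore also given without these mice. So are the counts at an unadjusted limma p over all members or gene sums, and the medians, where that moves them. Counts by the equal-variance test, above a mean level and without overlap are given with all mice. All 8 markers of hippocampal excitatory neurons had a mean of at least 1, while the summed FPKM of 5 choroid plexus markers varied from 1.59 to 81.1 between mice, both extremes in LH. The highest mouse was an LH mouse for all 9 marker lists and the lowest for 7 of them, as for oligodendrocytes (280 to 546 in LH) and red blood cells (144 to 459), and endothelial markers reached 11.8 in LH and at most 5.61 elsewhere. Their part in the results below was not tested.

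**Figure D2:**
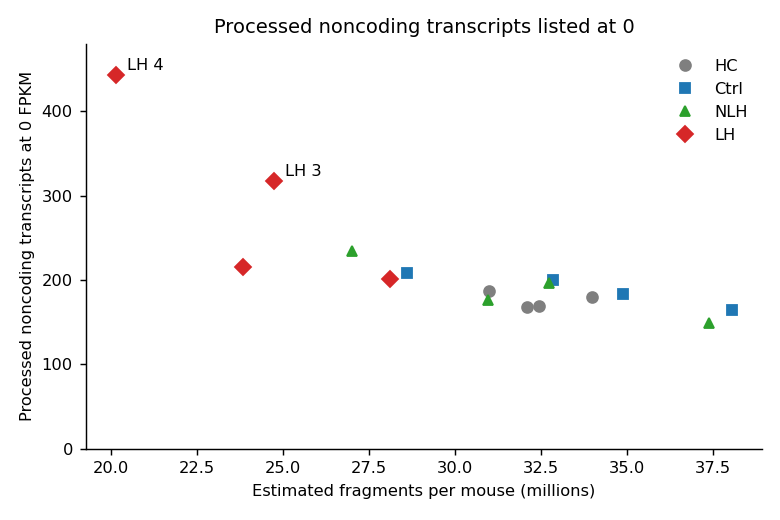
Number of the 899 processed noncoding transcripts listed at 0 FPKM (vertical axis) against the estimated fragments of each mouse (horizontal axis, M fragments), 1 point per mouse. LH 3 (317) and LH 4 (443) lie above the other 14 mice, which range from 149 to 235.

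A few genes made up much of the total. Cct6a (chromosome 5, 129786998 to 129846371) held 15.5% of the members' summed FPKM, and the 10 highest genes held 36.1%. Cct6a was at 61.0 ± 2.45, 55.3 ± 7.34, 60.0 ± 7.80 and 51.2 ± 14.4 in HC, Ctrl, NLH and LH (SD, n = 4 here and in all groups that follow). Per mouse it was at 59.4, 58.6, 61.9 and 64.0 in HC, at 51.0, 54.6, 49.7 and 65.9 in Ctrl, and at 65.8, 55.8, 67.2 and 51.1 in NLH. In LH it was at 58.5, 67.8, 36.8 and 41.7, so that the lowest pair of all 16 values came from LH 3 and LH 4. The LH vs. Ctrl difference of the gene was -0.14 (log2), and 0.20 without LH 3 and LH 4. Its largest contribution by FPKM was a noncoding transcript of 411 bases (ENSMUST00000201927.1), with 33.8 ± 3.71, 29.9 ± 7.13, 31.8 ± 4.12 and 19.6 ± 11.2 in HC, Ctrl, NLH and LH. That transcript was at 24.6 and 32.8 in LH 1 and LH 2 but at 8.67 and 12.1 in LH 3 and LH 4, below the 24.4 to 40.3 of the other groups. In LH vs. NLH its log2 difference was -0.88 (limma adjusted p = 0.460), and without LH 3 and LH 4 it was -0.15.

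Several of the 12 highest genes overlap coding genes. Gm20536 (chromosome 6, 72609836 to 72616190), on the opposite strand to Tgoln1 of the trans-Golgi network, was at 20.6, 18.6, 20.1 and 23.8 in HC and at 22.8, 26.8, 19.2 and 17.1 in Ctrl. It was more variable after inescapable shocks, at 4.20, 18.8, 6.09 and 13.0 in NLH and at 15.6, 33.2, 7.06 and 2.38 in LH. The NLH vs. Ctrl difference of -1.24 ± 0.59 (log2, SE) had an adjusted p of 0.890 by limma over gene sums, and the groups overlapped. In LH vs. Ctrl the difference was -1.11, and 0.11 without LH 3 and LH 4. In LH vs. NLH it was 0.12, and 1.34 without LH 3 and LH 4 (limma unadjusted p = 0.0101, adjusted p = 0.217). Gm28037 starts 68 bases from Rpl24, a ribosomal protein gene, on the same strand and was at 13.8 ± 2.96, 12.0 ± 3.45, 15.8 ± 8.15 and 14.1 ± 7.76 in HC, Ctrl, NLH and LH. Gm12940 overlaps Sfpq, a splicing factor of paraspeckles, on the same strand, and its locus is shared with Sfpq mRNA. It was at 1.61 to 6.60 in HC, 1.54 to 4.62 in Ctrl and 5.19 to 11.9 in NLH, without overlap between NLH and Ctrl. LH mice were at 10.8, 2.03, 11.6 and 11.3, so LH 2 lay among the controls. The differences of 1.47 ± 0.52 in NLH vs. Ctrl and 1.43 ± 0.52 in LH vs. Ctrl (log2, SE) did not pass limma's adjustment (adjusted p = 0.713 and 0.305), and the latter was 0.79 without LH 3 and LH 4.

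The other genes of the 12 highest varied less. 4933439C10Rik, on the opposite strand to the zinc finger gene Zkscan17, was at 7.29 to 10.1 in Ctrl and at 4.60 to 6.60 in LH, without overlap, and its difference of -0.59 ± 0.18 had an adjusted p of 0.209 (-0.47 without LH 3 and LH 4). NLH (4.92 to 9.14) and HC (6.00 to 8.49) lay across both. E130307A14Rik, which starts 111 bases from Rev3l, a DNA polymerase subunit gene, and runs from the other strand, was at 6.43 to 7.24 as group means. Ptpmt1 was at 5.92 to 6.80, 1500004A13Rik at 5.49 to 6.44 and A730017L22Rik at 5.38 to 5.83 by group mean. In none of these 4 genes did a comparison of all mice reach an unadjusted limma p under 0.05. Without LH 3 and LH 4, 1500004A13Rik, Ptpmt1 and A730017L22Rik were under 0.05 in LH vs. NLH (0.43, 0.39 and 0.24 on the log2 scale, limma adjusted p = 0.285, 0.286 and 0.277). With Gm20536, 4 of the 12 highest genes then stood higher in LH by that limit. The background was 15.3% of all gene sums, with 13.5% higher in LH.

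**Figure D3:**
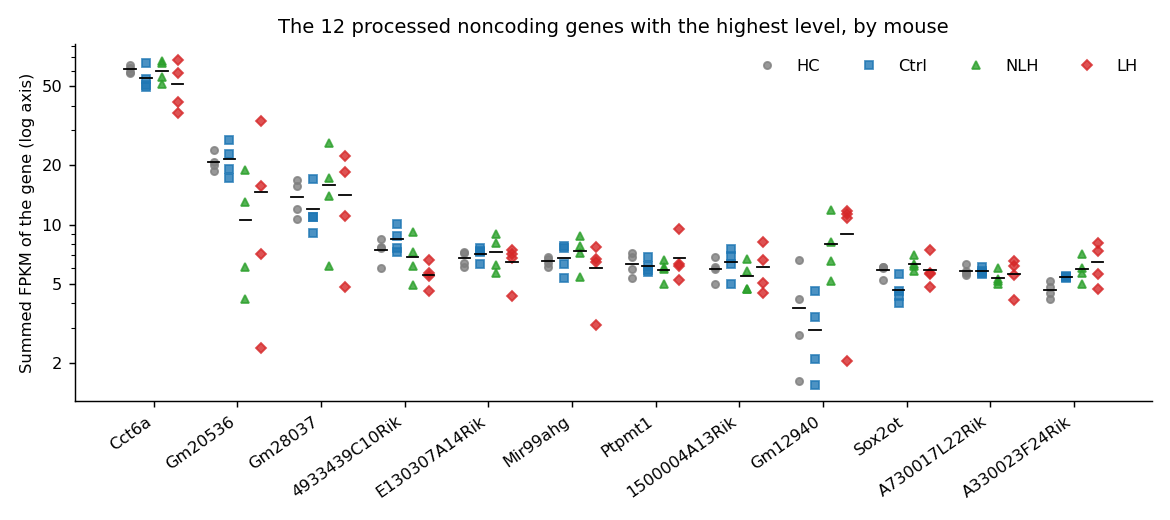
FPKM summed over the transcripts of each of the 12 processed noncoding genes with the highest level (vertical log axis), 1 point per mouse with 4 mice per group, and group means as black lines. Gm20536, Gm28037 and Gm12940 had larger SDs in FPKM within NLH and within LH than within HC and Ctrl. On the log axis, the NLH values of Gm12940 (5.19 to 11.9) spread less than those of HC (1.61 to 6.60). The group means of Cct6a lie between 51.2 and 61.0.

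Hosts of microRNAs were described next. Mir99ahg was at 6.51 ± 0.339, 6.78 ± 1.13, 7.31 ± 1.41 and 5.99 ± 2.01 in HC, Ctrl, NLH and LH. Its LH values were 7.71, 6.50, 3.09 and 6.68, and LH 3 alone lay below the 5.40 to 8.78 of the other mice outside LH. 2610203C20Rik, the second host with a let-7 and miR-125b gene, was at 4.94 ± 1.10, 4.58 ± 0.700, 4.68 ± 0.875 and 4.16 ± 1.42 in HC, Ctrl, NLH and LH, and LH 3 was again the lowest of the 16 mice at 2.34. A330023F24Rik, host of miR-29b and miR-29c, was at 4.68 ± 0.413, 5.43 ± 0.0398, 5.95 ± 0.896 and 6.45 ± 1.53 in HC, Ctrl, NLH and LH. Its LH vs. Ctrl difference of 0.21 was -0.07 without LH 3 and LH 4. Neither of the LH comparisons of these 3 genes reached an unadjusted limma p under 0.05.

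Mir22hg, at a locus shared with an mRNA, had close group means, with 4.13 ± 0.145, 3.93 ± 0.570, 4.00 ± 0.881 and 3.76 ± 0.248 in HC, Ctrl, NLH and LH. Dleu2, a gene first known from deletions in leukemia, was at 3.67 ± 1.83, 3.51 ± 0.534, 3.24 ± 0.530 and 4.23 ± 1.32 in HC, Ctrl, NLH and LH. One of its transcripts, ENSMUST00000182756.7 of 3530 bases, was at 1.98, 1.22, 1.00 and 1.14 in NLH and at 1.80, 1.67, 2.07 and 2.46 in LH, so that NLH 1 lay among the LH mice. That difference was 0.58 ± 0.21 (log2, SE; limma adjusted p = 0.465) and 0.40 without LH 3 and LH 4.

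Hosts of microRNAs known for neuronal roles had groups that overlapped. 1700016P03Rik, host of the activity-regulated miR-132 and miR-212, was at 1.71 to 2.81 in Ctrl and at 1.39, 2.07, below 0.01 and 2.60 in LH, with a mean of 1.52 ± 1.13. Its LH vs. Ctrl difference was -1.32, and -0.42 without LH 3 and LH 4. Gm26871, host of miR-137, was at 1.63, 1.54, 1.74 and 3.27 in Ctrl, at 0.895, 1.70, 2.47 and 3.07 in NLH and at 0.683, 1.86, 1.01 and 0.954 in LH. Its differences of -0.82 ± 0.35 from Ctrl and -0.75 ± 0.35 from NLH in the LH mice had adjusted p values of 0.385 and 0.663, and were -0.72 and -0.66 without LH 3 and LH 4. A330076H08Rik, host of the miR-344-2 gene and nearest to the imprinted gene Ndn, was at 1.69 to 2.06 in Ctrl and 1.56 to 2.15 in NLH, and at 1.63, 2.17, 3.37 and 5.03 in LH, with an LH vs. Ctrl difference of 0.58 ± 0.25 that became 0.04 without LH 3 and LH 4.

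Among the snoRNA hosts, the LH values of 1 gene stood apart from those of all other mice. 1110038B12Rik (chromosome 17, 34950238 to 34952471), host of Snord52, was at 3.21, 2.71, 4.54 and 4.19 in HC, at 3.09, 3.88, 3.45 and 3.93 in Ctrl, at 3.17, 4.91, 2.62 and 3.86 in NLH, and at 1.93, 2.57, 2.30 and 0.899 in LH. All 4 LH values lay below the other 12. The difference was -0.95 ± 0.27 against Ctrl and -0.94 ± 0.27 against NLH (log2, SE), which did not pass limma's adjustment over gene sums (adjusted p = 0.184 and 0.436). Without LH 3 and LH 4 the differences were -0.66 and -0.65.

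AA465934, host of Snord7, was at 1.37 to 2.16 in Ctrl and at 0.244, 1.19, 0.571 and 0 in LH, without overlap, and NLH (0.257 to 2.07) overlapped both. Its LH vs. Ctrl difference of -2.06 ± 0.62 had an adjusted p of 0.209 by limma and was -1.37 without LH 3 and LH 4, and its transcript ENSMUST00000177248.1 had a mean of only 8.09 estimated fragments. Zfas1, which starts 81 bases from Znfx1 on the other strand and hosts Snord12, was at 4.77 ± 0.933, 4.29 ± 1.21, 5.00 ± 0.593 and 5.52 ± 2.26 in HC, Ctrl, NLH and LH. 2410006H16Rik, host of Snord49a, Snord49b and Snord65, was at 5.15 ± 1.21, 3.75 ± 0.884, 5.46 ± 0.512 and 4.51 ± 2.98 in HC, Ctrl, NLH and LH. Over all 27 hosts, 12 had higher and 15 had lower LH levels on the log2 scale than Ctrl, with a median log2 difference of -0.0865 beside -0.101 over all 464 member genes. At an unadjusted limma p under 0.05 stood 2 higher and 3 lower hosts in LH vs. Ctrl, and none passed the adjustment in any comparison. The background in LH vs. Ctrl was 11.5% of all gene sums. Without LH 3 and LH 4, 14 hosts were higher and 13 lower, with 3 higher and 2 lower under 0.05 (background 24.3%), and the median was 0.0086, beside 0.000 over 463 member genes. These hosts were chosen by annotation after the levels of the members had been seen.

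**Figure D4:**
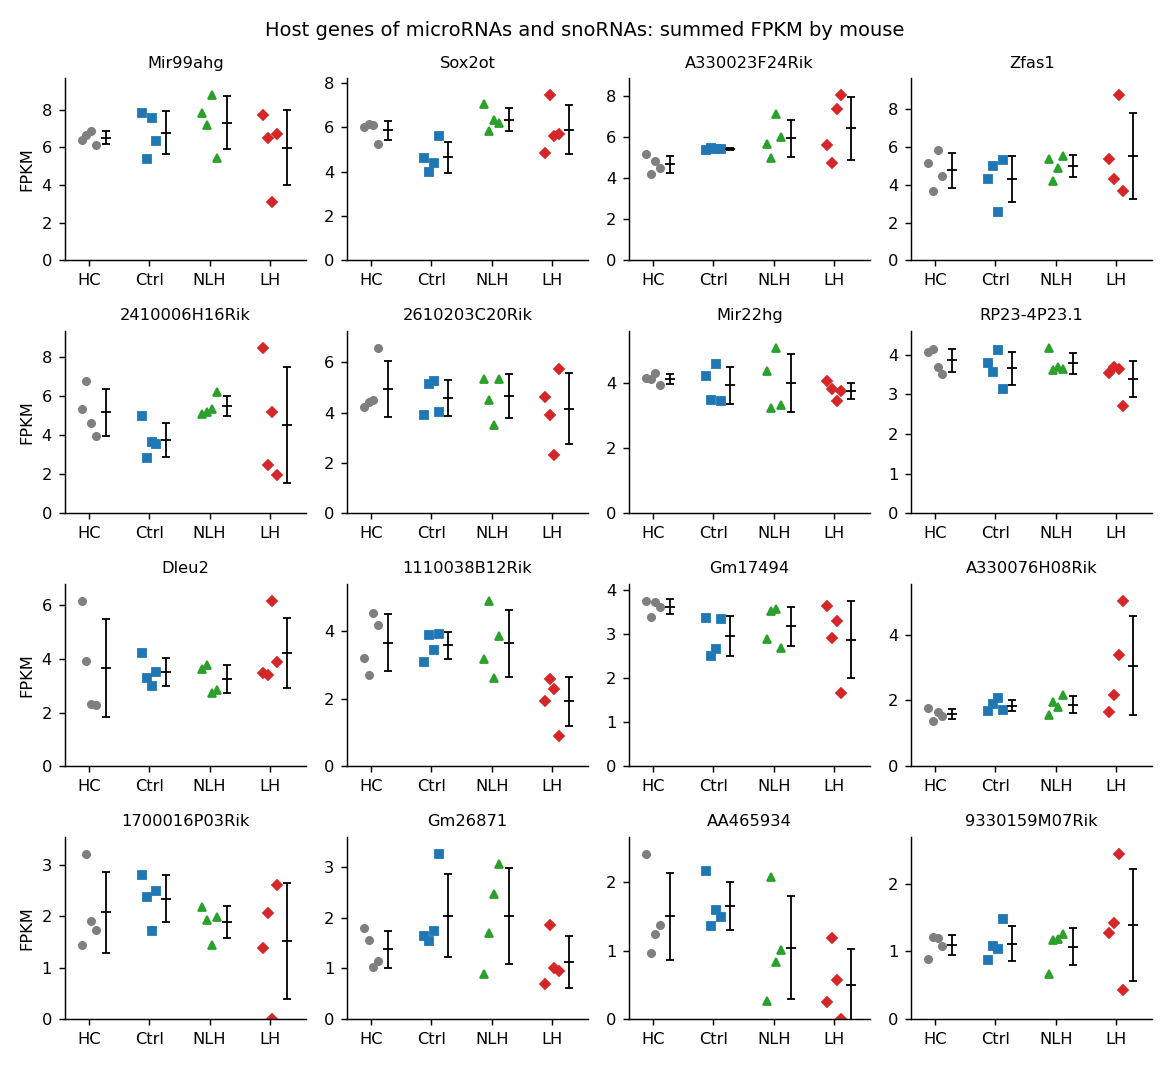
FPKM summed over each host gene of microRNAs or snoRNAs with a mean of at least 1, other than Cct6a, for 4 mice per group (points) with the mean and SD beside them (bars). All vertical axes start at 0. In 1110038B12Rik the 4 LH mice (0.899 to 2.57) lie below the other 12 (2.62 to 4.91), and elsewhere the groups mostly overlap.

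Among the characterised long noncoding RNAs, Sox2ot, also the host of Mir1897, had its lowest values in Ctrl. Sox2ot (chromosome 3, 34104270 to 34682619) is transcribed across Sox2, the gene of a transcription factor of neural stem cells, on the same strand. It was at 5.99, 6.12, 6.12 and 5.24 in HC, at 4.60, 3.99, 4.37 and 5.60 in Ctrl, at 7.04, 5.81, 6.32 and 6.18 in NLH, and at 4.85, 7.45, 5.59 and 5.67 in LH. NLH lay above Ctrl without overlap, and HC and LH each overlapped Ctrl through Ctrl 4. The log2 differences were -0.34 ± 0.14 in Ctrl vs. HC, 0.45 ± 0.14 in NLH vs. Ctrl and 0.33 ± 0.14 in LH vs. Ctrl (SE), with limma adjusted p of 1, 0.570 and 0.363, and the last was 0.38 without LH 3 and LH 4. These comparisons share the Ctrl mice. Its transcript ENSMUST00000196850.1 of 2705 bases, had the smallest limma p of the members with a mean of at least 1 in Ctrl vs. HC (unadjusted p = 0.0455, adjusted p = 1).

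Pantr2, the neighbor of the neuronal transcription factor gene Pou3f3, was at 0.353 to 0.512 in HC, 0 to 0.395 in Ctrl and 0 to 0.843 in NLH, and in LH it was at 0.243 in LH 2 and listed at 0 in the other 3 mice. Six3os1, opposite to the forebrain gene Six3, was at 0.037 to 0.125 by group mean. The 10 genes with opposite-strand names (Atxn7l1os2, Foxd2os, Foxl2os, Has2os, N4bp2os, Ptgs2os, Six3os1, Stamos, Unc45bos and Usp46os2) were all low, from a group mean of 0 to the 0.492 ± 0.113 of Atxn7l1os2 in HC. Among them 4 were higher and 4 lower in LH than in Ctrl, with 0 at an unadjusted p under 0.05 by limma (background 11.5%) and 1 without LH 3 and LH 4 (background 24.3%). Of the 7 characterised long noncoding RNAs, Sox2ot, Zfas1, Dleu2, Mir22hg, Mir99ahg, Pantr2 and Six3os1, 4 were higher and 3 lower in LH than in Ctrl, 1 higher at an unadjusted p under 0.05 (background 11.5%), and none passed the adjustment. Without LH 3 and LH 4, 5 were higher and 2 lower, 2 higher under 0.05 (background 24.3%). The lists share genes, so their counts are not separate. Sox2ot, Zfas1, Dleu2, Mir22hg and Mir99ahg are also small RNA hosts, and Six3os1 also has an opposite-strand name. Foxl2os was at 0.239 and 0.247 in HC 1 and HC 3 and was listed at 0 in the other 14 mice.

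By position, the members lay close to coding genes. Each of the 458 genes found in vM21 was placed by the first of these rules that it met. First came overlap with a coding gene on the same strand (66 genes, 14.4%). Next came a start within 1000 bases of the start of a coding gene on the other strand (172, 37.6%). Of the rest, 138 (30.1% of the 458) overlapped a coding gene on the other strand and 82 (17.9%) lay between coding genes. By the same rules, 60.8% of lincRNA genes were placed between coding genes, and 73.8% of antisense genes as overlapping a coding gene on the other strand. Pairs with a short distance between starts included Gm14204 with Slc32a1, the vesicular GABA transporter gene (44 bases), 2610316D01Rik with the protocadherin gene Pcdh10 (138 bases) and A530058N18Rik with the neuronal gap junction gene Gjd2 (17 bases), each named after their values were seen. Promoters of 300 bases were at hand in RefSeq for 235 of the genes (291 starts, GRCm38.p6). On either strand, the GC box CCCGCCC was in 32.0% of them and in 25.6% of all 32851 promoters, TATAAA in 10.7% and 13.6%, and the cyclic AMP response element TGACGTCA in 1.37% and 1.79%. Their median GC content was 56.0%, beside 52.7% over all.

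The first comparison, Ctrl vs. HC, covers handling, exposure to the shuttle box and the escape trials together, since HC mice had none of these, and their parts cannot be told apart. None of the 899 members passed limma's adjusted threshold of 0.05, beside 3 of the 80137 transcripts (0.00374%). At an unadjusted p under 0.05 stood 24 members, 9 higher (background 1.9%) and 15 lower in Ctrl (background 1.55%), which is 2.67% against a background of 3.45%. The equal-variance test on FPKM that the study used put 46 of 873 members under 0.05 (background 6.68%). Groups did not overlap for 26 members (background 4.48%), 10 higher in Ctrl (background 2.53%) and 16 lower (background 1.94%). The balance turned without Ctrl 1, to 15 higher and 10 lower by the same limit, and was 14 and 13 without Ctrl 2. By its rule, the transcripts named here after that of Sox2ot were ENSMUST00000145533.7 of 4933439C10Rik (1.02 ± 0.156 in HC, 1.45 ± 0.397 in Ctrl), ENSMUST00000183966.7 of 1500004A13Rik (1.66 ± 0.455 and 0.991 ± 0.173) and ENSMUST00000130659.7 of Gm12940 (2.91 ± 1.62 and 1.04 ± 0.851), all above an unadjusted p of 0.05. Of the members with a mean of at least 1, 1 of 72 stood under 0.05 (background 3.43%), and 11 of 493 with a mean of at least 0.1 (background 3.27%). Over gene sums it was 14 of 464 (background 2.69%), 2 higher and 12 lower in Ctrl. Of the 17826 other gene sums, 292 stood higher and 186 lower.

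In NLH vs. Ctrl, which compares mice that had inescapable shocks and still escaped with mice that had none, no member passed the adjusted threshold either, beside 10 transcripts in all (0.0125%). There were 31 members at an unadjusted limma p under 0.05, 17 higher (background 3.01%) and 14 lower in NLH (background 2.1%), or 3.45% against a background of 5.12%, and 37 of 870 by the equal-variance test (background 7.2%). Groups did not overlap for 22 members (background 5.02%), 14 higher in NLH (background 2.88%) and 8 lower (background 2.14%). The balance of directions turned without Ctrl 1, to 6 higher and 18 lower, and was 11 and 12 without Ctrl 2. By the same rule it was 4 of 72 with a mean of at least 1 (background 7.54%), 21 of 493 with at least 0.1 (background 5.45%) and 16 of 464 gene sums (background 5.59%). Gm21984, which overlaps the seizure-related gene Sez6l2 on the same strand and shares a locus with an mRNA, came first among the members with a mean of at least 1. Its transcript was at 3.47, 4.02, 3.46 and 2.36 in HC, at 1.65, 2.48, 2.17 and 3.81 in Ctrl, at 4.92, 5.34, 7.19 and 3.41 in NLH and at 5.33, 5.58, 3.49 and 9.25 in LH. Ctrl 4 lay within the range of both shocked groups. The log2 difference was 1.03 ± 0.30 in NLH vs. Ctrl and 1.17 ± 0.30 in LH vs. Ctrl, comparisons with the same Ctrl mice, with limma adjusted p of 0.555 and 0.186. Over gene sums the latter was 1.14 without LH 3 and LH 4 and then passed (adjusted p = 0.0440), as did 5.42% of all gene sums in that setting, 5.21% as higher in LH.

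A930005H10Rik followed, with a transcript of 433 bases at 1.32, 1.75, 3.11 and 1.99 in Ctrl and at 3.24, 3.79, 3.58 and 3.23 in NLH, without overlap (0.79 ± 0.29, adjusted p = 0.848). E230029C05Rik, which starts near Eed, a Polycomb gene, on the other strand, is named from the study's co-expression table, drawn up on these same mice, and is no independent evidence. It was at 0.857 to 1.09 in Ctrl, 0.367 to 0.720 in NLH and 0.815 to 1.22 in LH, and NLH lay below all 12 other mice (HC 0.991 to 1.48). It shares a locus with an mRNA. Its differences were -0.65 ± 0.21 in NLH vs. Ctrl and 0.63 ± 0.21 in LH vs. NLH, with adjusted p of 0.589 and 0.489 by limma, in comparisons that share the NLH mice. The latter was 0.53 without LH 3 and LH 4.

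LH vs. Ctrl gave more members at an unadjusted p under 0.05, as it did for transcripts of all kinds. These were 75 members (8.34%), against a background of 10.7%, and 21 were higher (background 4.16%) and 54 lower in LH (background 6.54%). None passed the adjusted threshold, beside 37 of all transcripts (0.0462%), and the smallest adjusted p of a member was 0.0562. The equal-variance test put 58 of 853 members under 0.05 (background 7.69%). Groups did not overlap for 41 members, 6 higher in LH (background 2.34%) and 35 lower (background 3.52%), against a background of 5.85% in all. With a mean of at least 1 it was 10 of 72 (background 15.8%), with at least 0.1 it was 59 of 493 (background 12.9%), and over gene sums 46 of 464 (background 11.5%). Those 46 were 12 higher and 34 lower in LH, while of the 17826 other gene sums 1274 stood higher and 787 lower. The median log2 difference of the members was -0.0817, beside -0.0641 over all transcripts. It was -0.0156 without LH 4 and 0.000 without LH 3 and LH 4.

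This balance rested on LH 3 and LH 4. Without both, 68 of 890 members stood under 0.05 (background 14.3%), and 43 of them were now higher and 25 lower in LH. The background was 9.61% higher and 4.65% lower. Over gene sums, 22 of 463 member genes (4.75%) stood higher and 23 (4.97%) lower by the same limit, while the background was 22.4% higher and 1.89% lower. The median log2 difference over gene sums was then 0.000 for member genes and 0.198 for all others. This contrast with the whole table was not tested. In that setting 5 of 463 member genes (1.08%) passed the adjusted threshold over gene sums, against a background of 5.42%. These were 1 higher (background 5.21%) and 4 lower in LH (background 0.208%), D930015M05Rik, Gm16534, Gm17066, Gm20319 and Gm21984, of which the Gm16534, Gm17066 and Gm20319 genes are named after their values were seen.

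BC046401, opposite to the chromatin reader gene Zmynd8, had the smallest p in LH vs. Ctrl among members with a mean of at least 1. It was at 1.83, 1.52, 1.23 and 1.95 in HC, at 1.71, 1.90, 2.30 and 1.48 in Ctrl, at 1.56, 1.44, 1.27 and 1.50 in NLH and at 1.36, 0.515, 1.13 and 0.432 in LH. LH lay below Ctrl without overlap and overlapped NLH and HC through LH 1. The difference was -1.13 ± 0.28 in LH vs. Ctrl (limma adjusted p = 0.169) and -1.02 without LH 3 and LH 4. A retained intron transcript of Cct6a of 701 bases, ENSMUST00000202262.1, was at 2.37, 1.76, 2.41 and 2.78 in Ctrl and at 1.71, 1.53, 0.880 and 0.565 in LH (-1.03 ± 0.30, adjusted p = 0.247), and at -0.48 without LH 3 and LH 4.

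In LH vs. Ctrl, 1 member was at 0.1 or more in all LH mice and below 0.01 in all Ctrl mice, and 1 the other way round, beside 15 and 176 of all transcripts. ENSMUST00000207694.1 of A330076H08Rik, the member with the smallest adjusted p and named after its values were seen, was below 0.01 in all HC and Ctrl mice and in 3 NLH mice, at 0.549 in NLH 1, and at 0.870, 0.335, 1.32 and 0.816 in LH. The other transcripts of this gene were above 0.2 in every mouse, and the FPKM of the 3 depend on how fragments were divided between them. ENSMUST00000153461.1 of A430108G06Rik, also named after its values were seen, was at 0.174 to 0.378 in Ctrl and below 0.01 in all LH mice, while the second transcript of its gene was at 0.343 to 0.719 in LH.

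In LH vs. NLH, which compares helpless and resilient mice after the same number of inescapable shocks, 68 members stood at an unadjusted limma p under 0.05, 20 higher (background 2.98%) and 48 lower in LH (background 5.74%). This was 7.56% against a background of 8.72%, and none passed the adjusted threshold, beside 33 transcripts in all (0.0412%). The equal-variance test put 39 of 860 under 0.05 (background 4.48%), and groups did not overlap for 26 members (background 3.18%), 8 higher in LH (background 0.933%) and 18 lower (background 2.25%). Over gene sums, 50 of 464 genes (10.8%) stood under 0.05 against a background of 7.53%, 13 higher and 37 lower in LH. Of the 17826 other gene sums, 489 stood higher and 839 lower. By the same limit it was 7 of 72 members with a mean of at least 1 (background 9.98%) and 51 of 493 with at least 0.1 (background 10.1%). The median log2 difference was -0.134 over members and -0.0771 over all transcripts, and over members it was -0.0367 without LH 4 and 0.000 without LH 3 and LH 4. Without LH 3 and LH 4, 61 members stood under 0.05 (background 11.1%), 43 higher (background 7.19%) and 18 lower (background 3.89%). Over gene sums it was then 37 of 463 (7.99%), below its background of 15.3%, so that the excess in the total seen with all mice was not kept. Of these, 24 were higher (5.18%, background 13.5%) and 13 lower (2.81%, background 1.81%), so that the lower share remained above its background. This difference in direction was not tested, and neither was the part in it of the higher FPKM scale of LH 1 and LH 2. Without LH 4 alone, 31 members were higher and 31 lower.

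6430590A07Rik, opposite to the abhydrolase gene Abhd18, had the smallest p in this comparison among members with a mean of at least 1. It was at 1.90, 1.95, 1.59 and 1.79 in HC, at 2.10, 2.01, 1.65 and 2.11 in Ctrl, at 1.55, 2.55, 2.39 and 2.20 in NLH, and at 1.39, 1.05, 1.70 and 1.17 in LH. LH 3 overlapped the other groups and NLH 1 lay within LH. The difference was -0.67 ± 0.17 in LH vs. NLH (adjusted p = 0.279 by limma) and -0.77 without LH 3 and LH 4.

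D930015M05Rik (chromosome 2, 92408892 to 92432308), opposite to the clock gene Cry2, was among the genes taken from the study's co-expression table. It was at 0.934, 1.26, 0.484 and 0.789 in HC, at 0.489, 0.730, 1.11 and 0.919 in Ctrl, at 0.560, 0.621, 0.590 and 0.852 in NLH and at 0.230, 0.317, 0 and 0.267 in LH. All 4 LH mice lay below the other 12. The log2 difference was -1.72 ± 0.40 in LH vs. Ctrl (SE; limma adjusted p over gene sums = 0.135) and -1.49 ± 0.40 in LH vs. NLH (0.368). Without LH 3 and LH 4 it was -1.25 and -1.01, and the former then passed the adjusted threshold (adjusted p = 0.0435), as did 5.42% of all gene sums, 0.208% as lower in LH. It had 20.3 estimated fragments on average.

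Of the other genes from that list, 4930443O20Rik was at 0.457 to 0.670 in Ctrl, 0.216 to 0.437 in NLH and 0.238 to 0.375 in LH, and neither shocked group overlapped Ctrl. Its LH vs. Ctrl difference was -0.70 ± 0.23 (limma adjusted p = 0.266), and -0.71 without LH 3 and LH 4. C4a, a complement gene with the close copy C4b, so that its fragments are uncertain, was at 0.339 to 1.29 in Ctrl and 0.108 to 1.69 in LH. BB218582 was at 0.103 to 0.832 in Ctrl, and in LH at 0.183 and 0.760 in LH 1 and LH 4 with 0 listed in both others. The list had been drawn up by the study on these same mice and is no independent evidence.

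**Figure D5:**
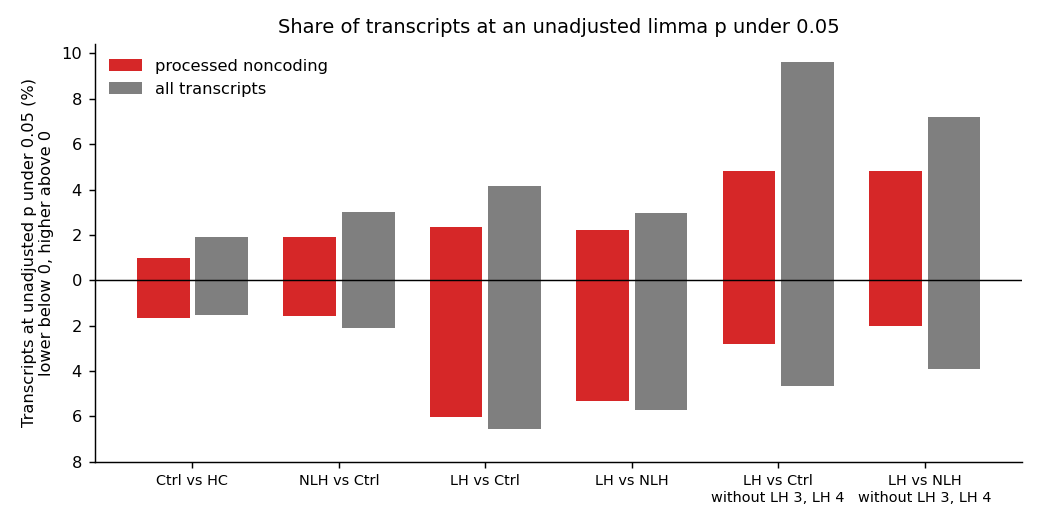
Share (%) of processed noncoding transcripts (red) and of all transcripts (gray) at an unadjusted limma p under 0.05 in each comparison, higher in the first named group above 0 and lower below 0. Members lie below all transcripts in total in each comparison, and without LH 3 and LH 4 both LH comparisons turn from mostly lower (54 of 75 and 48 of 68 members) to mostly higher (43 of 68 and 43 of 61).

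Isoforms of 1 gene kept their order in part. Of 55 genes with several member transcripts and a mean of at least 1, the transcript with the highest mean led in all 16 mice in 23. In 4933439C10Rik it held 58.2% to 59.7% of the gene's FPKM in all groups. In Cct6a the 411 base transcript held 55.4% ± 4.53, 53.7% ± 5.27, 53.0% ± 1.81 and 35.8% ± 11.5 in HC, Ctrl, NLH and LH, in parallel with the low values of LH 3 and LH 4 above. In A330076H08Rik the leading transcript held 63.2% ± 5.96, 77.2% ± 3.01, 69.8% ± 13.3 and 45.2% ± 17.9 in HC, Ctrl, NLH and LH.

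Members together made up 0.284% to 0.302% of the summed FPKM in HC mice, 0.266% to 0.282% in Ctrl, 0.262% to 0.290% in NLH and 0.250% to 0.258% in LH. Every LH mouse was below the other 12 in this ratio. The members' own summed FPKM was 389 and 404 in LH 1 and LH 2, and 331 and 300 in LH 3 and LH 4. It was 344 to 401 in the other groups. LH 1 and LH 2 had the highest sums over all transcripts, 150826 and 158004. Without Cct6a the LH range of 0.213% to 0.227% overlapped those of NLH (0.212% to 0.250%) and Ctrl (0.225% to 0.239%) and remained below that of HC (0.236% to 0.255%).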

How the data were processed

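Hippocampal RNA of 16 mice was sequenced as total RNA libraries with paired reads. Per the study's methods, the authors aligned reads to mm10 with HISAT2, merged transcripts with StringTie and deposited the FPKM of each transcript and mouse from Cufflinks. The submitters' processing notes name STAR 2.42a, StringTie 1.2.3 and Cufflinks, so the sources differ on the aligner. The deposited FPKM are not counts and carry no counting interval.

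The log2(FPKM + 0.1) values of all 80137 transcripts and 16 mice were modelled with limma 3.58.1 in R 4.3.3, with 4 group means, trend and robust moderation, two-sided, and Benjamini-Hochberg adjustment over all transcripts. Fold changes on this scale understate those of low transcripts. The fit was repeated on FPKM summed per gene name, from which values given for a gene come. Depth was estimated from FPKM steps of 1962 loci with 1 transcript over 2000 bases, for fragments of 200 bases; 65.5% to 73.4% of values lay within 0.1 of a whole fragment.

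The members and lists were chosen with earlier results of these data known. Named are the 12 genes with the highest level, in each comparison the 4 transcripts of lowest limma p that reached a mean FPKM of 1, microRNA hosts, opposite-strand names, characterised long noncoding RNAs and the 3 genes with most pairs per sheet of the study's co-expression table. None of the study's PCR genes were members. Other computations used Python 3.11.15 with pandas 2.3.3, numpy 2.4.6 and matplotlib 3.10.9. Alternatives changed the added constant (0.01 or 1), a filter on low values, scaling, the test, weights, a replicate block, the mice and the unit.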

Additional observations from a re-analysis of the deposited data

Results flagged for a closer look

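In 148 groups of 4 mice, for named genes and transcripts with a mean of at least 1 FPKM, 9 single mice lay far from the other 3 of their group, where chance gives about 1 in 20 groups (7.4 of 148). Those that lay high were 2610203C20Rik in HC 4 (6.58, others 4.24 to 4.50), Gm26871 in Ctrl 4 (3.27, others 1.54 to 1.74), RP23-4P23.1 in NLH 1 (4.18, others 3.61 to 3.70), the 4933439C10Rik transcript ENSMUST00000145533.7 in Ctrl 2 (2.05, others 1.2 to 1.32) and the A930005H10Rik transcript ENSMUST00000185424.1 in LH 3 (3.66, others 2.35 to 2.55). Those that lay low were Sox2ot in HC 4 (5.24, others 5.99 to 6.12), 9330159M07Rik in NLH 1 (0.668, others 1.17 to 1.26), Gm12940 in LH 2 (2.03, others 10.8 to 11.6) and RP23-4P23.1 in LH 4 (2.70, others 3.54 to 3.68).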

How the results depend on the processing

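Counts of members at an unadjusted p under 0.05 kept within 1.5 times of 24, 31, 75 and 68 (Ctrl vs. HC, NLH vs. Ctrl, LH vs. Ctrl, LH vs. NLH) under 0.01 or 1 added to FPKM and under median-ratio size factors. In Ctrl vs. HC they were 11 at a mean FPKM of at least 0.1, 1 at a mean of at least 1, 53 with weights per mouse, 46 by the equal-variance test, 41 with only the 8 mice compared and 14 over gene sums. In NLH vs. Ctrl they were 4 at a mean of at least 1, 53 with weights and 16 over gene sums. LH vs. Ctrl gave 10 and 46, at a mean of at least 1 and over gene sums, and LH vs. NLH gave 7 at a mean of at least 1, 39 by the equal-variance test and 37 with only 8 mice. The filters and gene sums test fewer features, and for the others the cause was not tested. With each mouse left out in turn, counts ranged from 16 to 27, 23 to 34, 59 to 101 and 52 to 88, and members past the adjusted threshold from 0 to 1, 0 to 1, 0 to 2 and 0 to 1, beside 0 to 13, 8 to 47, 12 to 310 and 14 to 242 of all transcripts. Over all alternatives 7 transcripts passed it at least once, of A330076H08Rik, F730043M19Rik, Mir99ahg, Gm13645, Gm44597, Gm8378 and Gm20319, named after their values were seen; 1 did so in LH vs. Ctrl under size factors (A330076H08Rik, beside 133 of all transcripts) and 1 without LH 3 and LH 4 (Gm20319, beside 327), an alternative chosen after seeing the data. Over gene sums 10 genes passed at least once, all in LH vs. Ctrl and Gm13645 also in LH vs. NLH; for D930015M05Rik the adjusted p was 0.0198 with weights per mouse, 0.0491 without LH 4 and 0.0435 without LH 3 and LH 4, where 968, 191 and 989 of all gene sums passed, with 8, 1 and 5 members among them.

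Mouse numbers were not found to pair the mice: the median r between same-numbered mice was -0.00835 over 24 pairs (-0.0575 to 0.0874). With the number as a replicate block, the counts were 26, 31, 68 and 62, and 0 passed the adjusted threshold. Of 3403 alternative values of 212 named log2 differences, 64 moved by over 1 SD and 264 had the other sign. Depth is a limit: 71.4% of members with an estimate had fewer than 10 estimated fragments.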
